A study of Rattus norvegicus with 6 samples.

Results

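Motile cilia genes were followed here in total lung tissue of Sprague-Dawley rats given the Sugen-Hypoxia treatment (SuHx) and labelled day 56. The comparison under that treatment was between wild type (WT, 3 libraries) and Ahr knockout (Ahr-KO, 3 libraries). The product of Ahr is a transcription factor that binds dioxins and other aromatic ligands. Sugen blocks VEGF receptors, and rats given it together with low oxygen develop pulmonary hypertension. Both groups carried the treatment, so no library shows an untreated lung, and the labels used here give neither the site of the Ahr edit nor the age of the animals. Members were chosen by symbol. They were axonemal dynein chains (Dnah, Dnai, Dnal) and their assembly factors (Dnaaf), radial spoke proteins (Rsph), tektins (Tekt), cilia and flagella associated proteins (Cfap), sperm associated antigens (Spag), intraflagellar transport proteins (Ift), and Foxj1, Mcidas, Ccdc39, Ccdc40, Ccdc114, Hydin, Tppp3 and Cdhr3. The table held 94 such entries among 19828, and 88 of them had a value of at least 1 in 3 or more libraries, as did 15386 entries in all. The 88 divide into 74 members called the motile axoneme set here and 14 Ift members.

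Motile cilia cover the multiciliated cells of the airway lining and move mucus along it. Each contains an axoneme, a ring of doublet microtubules around a central pair, on which dynein arms slide the doublets while radial spokes and the central apparatus time the stroke. Intraflagellar transport carries parts along every cilium, motile or primary, and primary cilia stand on many other lung cells. The Ift genes therefore serve as the general arm of the comparison and the axonemal genes as the arm tied to motile cilia.

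Values are the deposited normalised read counts. Folds are on the log2(value + 1) scale, Ahr-KO against WT, with ± SE from limma-trend, and p-values are Benjamini-Hochberg adjusted over all 15386 entries with a threshold of 0.05. Means are ± SD over n = 3 libraries, numbered 0, 1 and 2 in each group as in the table, with no pairing implied. Estimated depth was 12.9 M to 21.9 M reads in WT and 14.2 M to 23.6 M in Ahr-KO, and 1 read was worth a value of 0.806 to 1.399. Ahr itself did not separate the groups (3065 ± 288 in WT and 3299 ± 799 in Ahr-KO, adjusted p = 0.81), and since the edited part of the gene is not given, its level does not check the labels. Its target Cyp1a1 did separate them, at 23512 to 37694 in WT and 0.826 to 10.5 in Ahr-KO. Genes of alveolar epithelium, which define lung tissue, were abundant in every library. Nothing in the labels says that the 3 samples of a group are different animals, and the p-values therefore reflect sample-to-sample spread that may be technical. In total lung, fewer ciliated cells and less RNA per ciliated cell cannot be told apart. Values are not divided by transcript length, so levels are compared between libraries and not between genes.

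Many genes of the motile axoneme were lower in the Ahr-KO lungs, whereas among the Ift genes 1 was called higher and none lower. Of the 74 motile axoneme members, 15 fell (20.3%) and 2 rose, while 57 did not pass the test. Over all entries 6.26% fell (963) and 4.50% rose (692). With library totals made equal, all entries gave 1314 falls and 448 rises and the motile axoneme 23 and 2. Below 0 were the log2 fold changes of 56 motile axoneme members (75.7%) and of 49.0% of all entries. Of the 14 Ift members 0 fell by limma, also at an unadjusted p under 0.05, and 1 rose, a share of 7.14% that lies near the background. The median log2 fold change was -0.48 for the motile axoneme, -0.09 for Ift and 0.01 for all entries. The middle 50% of the motile axoneme members ran from -0.78 to -0.03, and that of Ift from -0.12 to 0.08. All 3 Ahr-KO values lay below all 3 WT values for 36 motile axoneme members (48.6%), against 17.4% of all entries, and above them for 3 (4.05%), against 17.0%. Among Ift members 1 was apart downwards and 2 upwards.

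**Figure D1:**
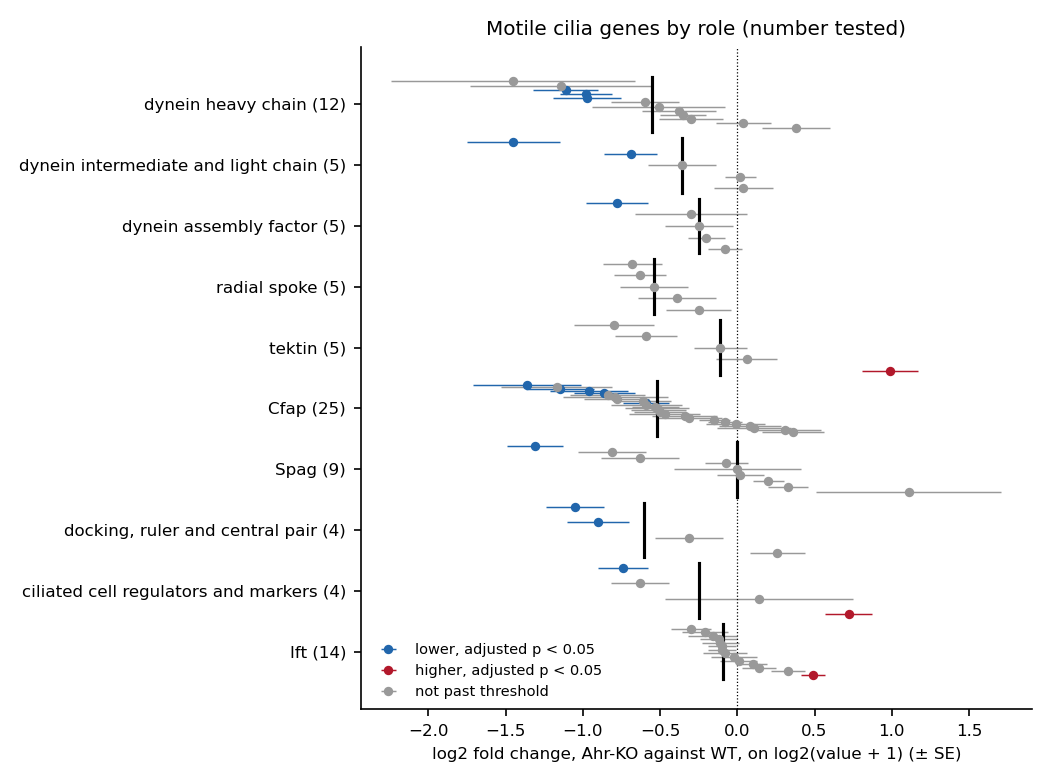
Log2 fold change (± SE) of each tested member, on the horizontal axis, by role, on the vertical axis, with the number of members in brackets; black bars are medians, blue and red points passed the threshold and grey points did not. The bars lie left of 0 for 9 of the 10 roles, furthest for the docking, ruler and central pair genes at -0.61, and at 0.00 for Spag; the Ift bar lies at -0.09.

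**Figure D2:**
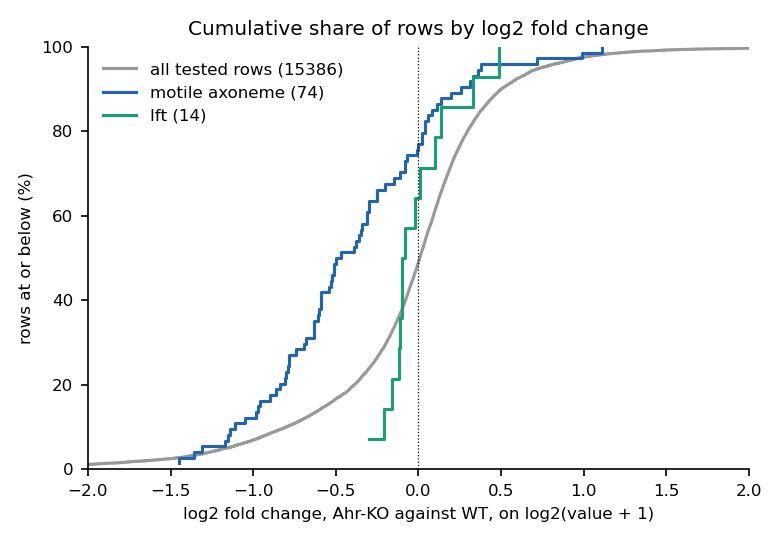
Share of entries (%) at or below each log2 fold change for all 15386 entries, the 74 motile axoneme members and the 14 Ift members. The motile axoneme curve is shifted to the left, with a median of -0.48, and the Ift curve rises steeply around its median of -0.09; entries beyond 2 in either direction are outside the axis.

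Foxj1, the forkhead transcription factor that switches on the motile cilia programme, fell in the Ahr-KO lungs. Its WT values were 1015, 1289 and 996, and its Ahr-KO values 673, 780 and 533. The groups did not overlap. The fold was 1.67 (log2 -0.74 ± 0.16, adjusted p = 0.030). Cdhr3, a cadherin of ciliated cells, was likewise lower in every Ahr-KO library, at 209, 269 and 190 against 299, 321 and 417, but did not pass the test (log2 -0.63 ± 0.19, adjusted p = 0.07). Mcidas, which starts the multiciliated cell fate upstream of Foxj1, was only just above the level set for testing. It ranged from 2.0 to 6.99 in WT and from 1.61 to 7.44 in Ahr-KO, only a few reads in each library, and no difference was detectable at this depth (log2 0.14 ± 0.61, adjusted p = 0.91).

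Tppp3 went the other way. It encodes a tubulin polymerisation promoting protein, a usual marker of ciliated cells that is also made by some fibroblast-like cells. Its values were 9221, 8519.6 and 6327 in WT and 12404, 14333 and 12388 in Ahr-KO, so every Ahr-KO library lay above every WT library. It rose 1.64-fold (log2 0.72 ± 0.15, adjusted p = 0.025). Tppp3 was the most abundant member by value and alone made up 13.2% to 21.4% of the summed motile axoneme value in WT and 29.1% to 31.5% in Ahr-KO. Sums over the set are therefore given without it as well.

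The dynein arms, the motors of the beat, were lower in part. Of 12 tested heavy chains 3 fell, against 6.26% of all entries, and none rose, with a median log2 fold change of -0.55. Groups were apart downwards for 6 of the 12, against 17.4% of all entries, and upwards for none. Dnah11, an outer-arm heavy chain, stood at 712, 737 and 957 in WT and at 330, 452 and 434 in Ahr-KO. These groups lay far apart, and the gene fell 1.98-fold (log2 -0.98 ± 0.17, adjusted p = 0.013). The inner-arm heavy chain Dnah6 stood at 606, 755 and 1136 in WT against 384, 382 and 349, a 2.16-fold fall (log2 -1.11 ± 0.21, adjusted p = 0.018). Its WT values were widely spread and its Ahr-KO values nearly equal. Dnah7, another inner-arm heavy chain, fell 1.96-fold, from 361, 347 and 472 to 161, 271 and 179 (adjusted p = 0.031). Among the 9 heavy chains that did not pass, Dnah5, Dnah9 and Dnah10 also had all Ahr-KO values below all WT values. Their log2 fold changes were -1.14, -0.60 and -0.35 (adjusted p = 0.26, 0.12 and 0.18). The gap between the groups was narrow for Dnah5, and for Dnah10 at 719 against 724. The Dnah5 value was also far higher in WT library 2 (83.9) than in the other WT libraries.

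Some heavy chains showed no such shift. Dnah2, of the inner arm, was at 487 ± 68 in WT and 505 ± 112 in Ahr-KO. Dnah17, an outer-arm chain best known from sperm, was at 92.8 ± 9.06 and 124 ± 32.9, the highest fold change of the heavy chains (log2 0.38 ± 0.22, adjusted p = 0.31). Dnah12, the heavy chain with the largest values, overlapped between groups (1998 ± 484 and 1551 ± 447, adjusted p = 0.35). The lowest fold change, log2 -1.45 ± 0.79, belonged to Dnah8 and rested on 1 library. Its values were 4.0, 36.1 and 5.6 in WT and 3.22, 4.96 and 1.36 in Ahr-KO. Dnah5, the outer-arm chain most often mutated in primary ciliary dyskinesia, was low too, at 20, 15.6 and 83.9 against 10.5, 14 and 15, and Dnah3 stood at 221, 333 and 855 in WT against 247, 298 and 295.

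Of the 5 smaller dynein subunits 2 fell (40.0%, against 6.26% of all entries), an intermediate chain and a light intermediate chain. Dnai2, an outer-arm intermediate chain, went from 226, 316 and 425 in WT to 107, 164 and 83.2 in Ahr-KO. This 2.73-fold fall (log2 -1.45 ± 0.30, adjusted p = 0.024) was the largest among members that passed. Dnali1, a light intermediate chain of the inner arm, was nearly constant in WT at 613, 632 and 631 and lower in each Ahr-KO library at 372, 504 and 312 (1.61-fold, adjusted p = 0.043). Dnai1, the partner of Dnai2, did not pass, at 213 ± 47 and 165 ± 35.2 (adjusted p = 0.33). The light chains Dnal1 (74.4 ± 4.67 and 76.5 ± 6.03) and Dnal4 (575 ± 8.64 and 582 ± 36.9) had almost equal means in both groups.

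Dynein arms are put together in the cytoplasm by assembly factors before they enter the cilium. Of 5 tested factors 1 fell, against 6.26% of all entries. Dnaaf1 stood at 177, 177 and 238 in WT and at 117, 131 and 94.1 in Ahr-KO (1.72-fold, adjusted p = 0.045). The other 4, Dnaaf2, Dnaaf3, Dnaaf5 and the entry that names Dnaaf4 with its older symbol Dyx1c1, had log2 fold changes of -0.30 to -0.08 and did not pass. Groups were apart downwards for 2 of the 5, Dnaaf1 and Dnaaf2 (40.0%, against 17.4% of all entries).

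Docking and ruler proteins fix where arms and spokes sit along the doublet. Ccdc40, which with Ccdc39 forms the ruler of the axonemal repeat, fell 1.87-fold, from 453, 503 and 569 to 264, 354 and 211 (log2 -0.90 ± 0.20, adjusted p = 0.028). Its partner Ccdc39 overlapped between the groups, at 357, 421 and 592 in WT and 357, 447 and 289 in Ahr-KO (adjusted p = 0.40). Whether the 2 partners differed in their change was not tested. Ccdc114, of the outer-arm docking complex, was at 299 ± 35.1 and 363 ± 74.8 (log2 0.26 ± 0.18, adjusted p = 0.39).

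The central apparatus held the lowest p-value of all members. Spag6, a central pair protein, stood at 392, 517 and 586 in WT and at 185, 229 and 181 in Ahr-KO. Even its lowest WT library was well above its highest Ahr-KO library, and the gene fell 2.48-fold (log2 -1.31 ± 0.18, adjusted p = 0.0076). Hydin, a very large protein of a central pair projection, was at 808, 907 and 1369 in WT and at 473, 517 and 461 in Ahr-KO, with a tight Ahr-KO group and a high WT library 2 (2.07-fold, log2 -1.05 ± 0.19, adjusted p = 0.016). Cfap221, also of the central apparatus, fell 2.57-fold from 78, 97.7 and 119 to 21.8, 52.9 and 43.7 (adjusted p = 0.046). A grouping made after the values were seen puts 8 tested members in the central apparatus (Hydin, Spag6, Spag16, Spag17, Cfap46, Cfap69, Cfap74 and Cfap221), with a median of -0.67. Spag17 was lower in every Ahr-KO library without passing (463 ± 109 and 263 ± 57.5, adjusted p = 0.057). Spag16 was barely read, at 8.75 ± 0.978 and 9.29 ± 4.31. Spag6 has a relative in the table, Spag6l, at 0.9996, 0 and 1.40 in WT and 2.42, 4.96 and 1.36 in Ahr-KO. Reads shared between close copies could move such a low value, and it was the 1 member tested through the Ahr-KO libraries alone.

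Regulatory factor X (RFX) proteins act beside FOXJ1 on cilia genes, and many such genes carry their binding motif near the start site. Start-site windows of 300 bases (250 before and 50 after the start) from RefSeq, build GRCr8, were matched by symbol to 72 of the 88 tested members and to 13 of the 15 that fell. Foxj1 and Dnaaf1 were among those with no entry. The RFX half-site GTTGCC, on either strand, was in 29 of 101 windows of the motile axoneme members (28.7%). It was in 4 of 11 windows of the Ift members (36.4%) and in 12.2% of all 33469 windows. Among the 28 windows of the members that fell, 5 held it (17.9%), in Dnah11, Dnai2, Hydin and Spag6. Shown are 1 window for each of these 4 genes, because they include the lowest adjusted p and the largest fall among the members. For Dnah11, which has 6 windows, the more upstream of the 2 with the half-site is printed. Capitals mark the half-site as GTTGCC or, on the other strand, as GGCAAC.
Spag6, chr17:86261825-86262124 (plus strand): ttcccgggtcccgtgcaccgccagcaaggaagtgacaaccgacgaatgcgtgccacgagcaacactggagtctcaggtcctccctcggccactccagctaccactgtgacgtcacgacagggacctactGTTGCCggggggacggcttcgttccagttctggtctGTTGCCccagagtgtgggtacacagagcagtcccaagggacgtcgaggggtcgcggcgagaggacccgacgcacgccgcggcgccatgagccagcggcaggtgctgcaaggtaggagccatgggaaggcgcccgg
Hydin, chr19:55146216-55146515 (plus strand): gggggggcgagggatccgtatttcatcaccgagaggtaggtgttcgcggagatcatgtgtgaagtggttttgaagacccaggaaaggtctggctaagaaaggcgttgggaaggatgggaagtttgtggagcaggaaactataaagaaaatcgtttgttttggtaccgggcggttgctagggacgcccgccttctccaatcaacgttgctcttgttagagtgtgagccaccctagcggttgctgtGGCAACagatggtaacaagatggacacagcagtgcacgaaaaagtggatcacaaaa
Dnai2, chr10:100258772-100259071 (plus strand): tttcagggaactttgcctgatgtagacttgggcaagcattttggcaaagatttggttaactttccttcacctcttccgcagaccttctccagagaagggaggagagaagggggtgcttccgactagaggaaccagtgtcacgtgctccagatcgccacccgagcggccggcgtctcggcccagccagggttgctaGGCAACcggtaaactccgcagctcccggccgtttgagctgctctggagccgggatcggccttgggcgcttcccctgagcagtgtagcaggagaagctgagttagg
Dnah11, chr6:145298474-145298773 (minus strand): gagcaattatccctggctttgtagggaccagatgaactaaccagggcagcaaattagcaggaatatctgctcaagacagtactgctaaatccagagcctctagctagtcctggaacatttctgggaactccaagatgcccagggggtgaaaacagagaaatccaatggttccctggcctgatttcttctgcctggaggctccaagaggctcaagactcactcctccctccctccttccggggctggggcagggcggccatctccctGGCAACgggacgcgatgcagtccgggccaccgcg

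Spag6 has 2 half-sites in its window and the other windows shown have 1 each. Hydin and Dnah11 carry it close to the annotated start. The full palindromic X-box reads GTTNCC, then any 2 bases, then GGNAAC, and can contain the half-site in either arm. It was in none of the 28 windows of the fallen members and in 0.472% of all windows. The forkhead core TGTTTAC was in 1 of the 28 (Dnali1) and in 3.78% of all windows. GCGTG, the core of the AHR response element, was in 11 of the 28 windows (39.3%), in 40.6% of motile axoneme windows, 45.5% of Ift windows and 29.7% of all windows. All motifs were searched on both strands, the forkhead and AHR cores lie within neither RFX form, and a match describes letters in a window and not a bound site.

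Radial spokes were lower in each tested member by point estimate, yet none passed. By limma 0 fell, and 3 were lower at an unadjusted p under 0.05, as were 2245 of all 15386 entries. The 5 tested genes had log2 fold changes of -0.68 to -0.25. Rsph9, a spoke head protein, stood at 285, 283 and 302 in WT and at 189, 228 and 138 in Ahr-KO (1.6-fold, adjusted p = 0.064). Rsph10b stood at 584, 568 and 602 against 323, 493 and 334 (1.55-fold, adjusted p = 0.053). In both the WT values were close together and the groups did not overlap. Rsph3 overlapped between the groups (138 ± 12.6 and 118 ± 29.3, adjusted p = 0.49). Rsph4a and Rsph6a were below the level for testing: Rsph4a was listed at 0 in 5 libraries and at 0.826 in 1, and Rsph6a at 0.9996 and 0.826 in 1 library of each group.

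The Cfap genes, a naming family of axonemal and basal body proteins, made up the largest group of members. Of 25 tested, 5 fell (20%, against 6.26% of all entries) and none rose. Groups were apart downwards for 14 (56.0%, against 17.4%) and upwards for none, and the median was -0.52. Besides Cfap221, those that fell were Cfap61, Cfap57, Cfap77 and Cfap206. Cfap61, a part of the complex at the spoke base, went from 165, 207 and 242 to 89.5, 110 and 75 (2.22-fold, log2 -1.15 ± 0.22, adjusted p = 0.017). Cfap57 went from 169, 166 and 231 to 103, 120 and 69.6 (1.95-fold, adjusted p = 0.046). Both had all Ahr-KO libraries below all WT libraries. Cfap77, from inside the doublet wall, went from 204, 221 and 207 to 117, 145 and 90.0 (1.82-fold, adjusted p = 0.033), and Cfap206 from 345, 390 and 378 to 211, 287 and 243 (1.51-fold, adjusted p = 0.042). At the other end Cfap100 stood at 723 ± 164 and 929 ± 210 (log2 0.36 ± 0.20, adjusted p = 0.30). Cfap44, the Cfap gene with the largest values, did not pass (2499.9 ± 376 and 1658 ± 377, adjusted p = 0.067). Cfap58 was listed at 0 in all 6 libraries.

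Tektins, filament proteins inside the doublet microtubules, split. Tekt1 was at 281, 332 and 383 in WT and 195, 265 and 130 in Ahr-KO (log2 -0.80 ± 0.26, adjusted p = 0.089), and Tekt4 at 243 ± 28.9 and 163 ± 38.6 (adjusted p = 0.099). Tekt2, at 337 ± 54.2 and 311 ± 47.6, and Tekt3, at 79.6 ± 13.2 and 82.2 ± 6.14, overlapped. Tekt5, known mainly from the sperm flagellum, rose 1.98-fold, from 104, 103 and 83.9 to 189, 226 and 168 (log2 0.99 ± 0.18, adjusted p = 0.017). The lowest Ahr-KO library lay far above the highest WT library. Of 10 germ cell genes none reached the level for testing, 6 were at 0 in every library and their sum was 2.0 to 4.21 in WT and 1.36 to 3.22 in Ahr-KO.

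Of the tested motile axoneme members, 9 are known from outside cilia or are broadly expressed, among them Spag5, Spag7, Spag9, Cfap20, Cfap36 and Dnal4. At an unadjusted p under 0.05 by limma, 1 of the 9 was lower and 1 higher, against 2245 and 2055 of all 15386 entries. None of the 9 passed by limma, and their median was -0.08. Spag9, a scaffold of JNK signalling and vesicle transport, was the largest of them, at 4529 ± 526 and 5181 ± 233 (adjusted p = 0.26). Spag5 belongs to the mitotic spindle and stood at 78.0, 83.8 and 61.6 in WT and 61.3, 38.8 and 45 in Ahr-KO (adjusted p = 0.15). Of 16 mitosis genes 7 fell (43.8%, against 6.26% of all entries) and none rose. Cdk1, the kinase that starts mitosis, had the lowest p of these and went from 187, 200 and 154 to 88.7, 56.2 and 75 (log2 -1.30, adjusted p = 0.013). The count of 7 became 0 without Ahr-KO library 2, 1 without WT library 0 or Ahr-KO library 1, 2 without WT library 1 and 2 with the replicate block. The part of dividing cells in the level of Spag5 was not tested. Spag4, Spag11a and the entry for Spag11b with Spag11bl were listed at 0 throughout. The 65 members left without the 9 had 15 falls (23.1%) and a median of -0.52.

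Intraflagellar transport genes had small fold changes in either direction. Of the 14, 13 did not pass, 11 of those had overlapping groups, and log2 fold changes ran from -0.30 to 0.49. Ift46, of the complex that carries cargo towards the tip, was the 1 that rose, from 809, 857 and 867 to 1206, 1178 and 1170.4. It had very little spread in either group and a fold of 1.40 (log2 0.49 ± 0.08, adjusted p = 0.014). Ift140, of the complex for the return journey and the most abundant Ift gene by value, was also higher in every Ahr-KO library, at 1532, 1623 and 1795 against 1148, 1346 and 1453, without passing (log2 0.33 ± 0.11, adjusted p = 0.11). Ift74, of the outbound complex, had the lowest fold change, at 331 ± 27.2 and 269 ± 22.4 (log2 -0.30 ± 0.13, adjusted p = 0.18), with its groups apart.

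For single Ift genes the intervals bound how far they could have moved. Ift88, a core transport subunit, was at 354, 359 and 375 in WT and 353, 396 and 288 in Ahr-KO, with a 95% interval of -0.41 to 0.25 for the log2 fold change. Ift20, which links the complex to the Golgi, was at 829, 832 and 671 against 866, 874 and 814, with an interval of -0.12 to 0.40. Ift172 was at 900 ± 54.2 and 966 ± 50.8, with an interval of -0.11 to 0.32. These intervals leave room for changes smaller than the falls of Foxj1, Spag6 or Dnai2 and do not show that the levels were equal. Ift22, Ift27, Ift43, Ift52, Ift57, Ift80, Ift81 and Ift122 had adjusted p of 0.41 to 0.97.

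**Figure D3:**
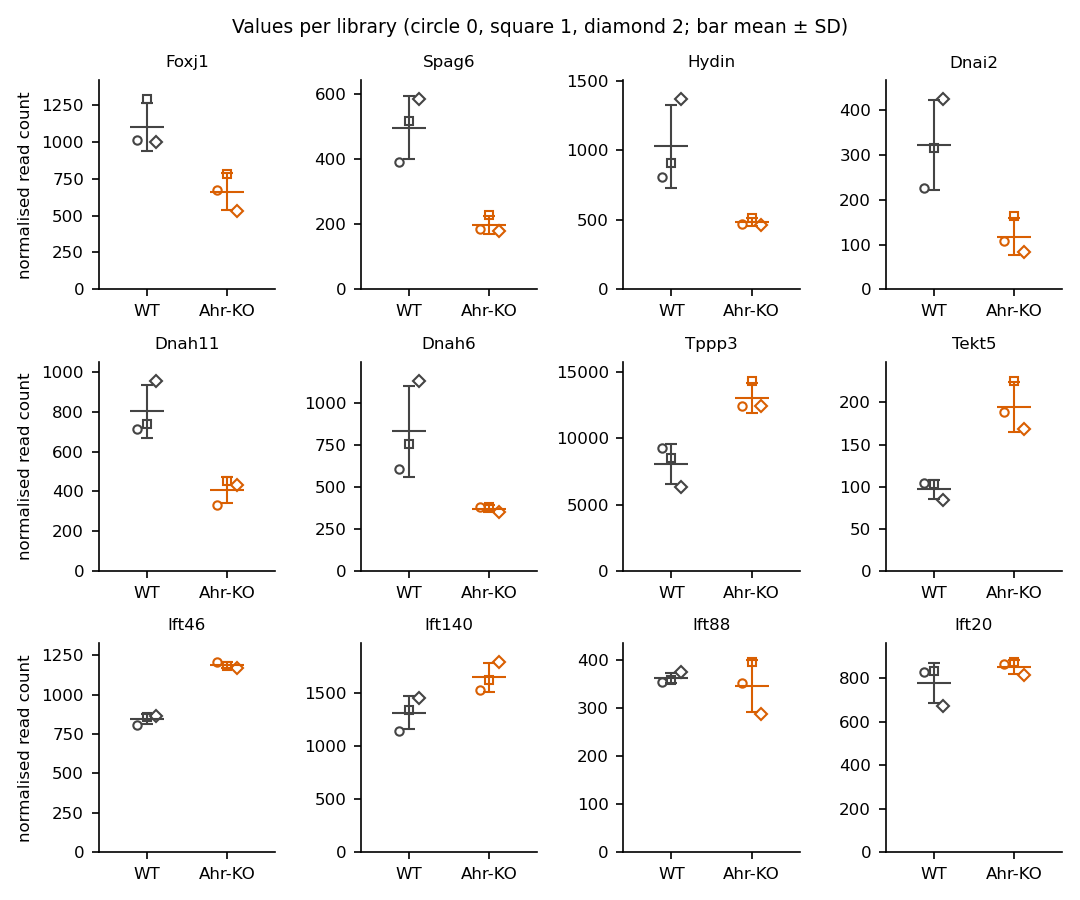
Normalised read count of 12 members in each library, by genotype (WT grey, Ahr-KO orange; circle, square and diamond are libraries 0, 1 and 2; the bar is the mean ± SD, n = 3). Foxj1, Spag6, Hydin, Dnai2, Dnah11 and Dnah6 lie lower in all 3 Ahr-KO libraries, Tppp3, Tekt5, Ift46 and Ift140 lie higher, and Ift88 and Ift20 overlap.

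The motile axoneme level relative to the Ift level was read in each library. Taken as the mean of log2(value + 1) over the 74 members minus that over the 14 Ift members, it was -1.03, -0.95 and -0.82 in WT and -1.47, -1.12 and -1.40 in Ahr-KO. The groups did not overlap, and the difference of means was -0.40. As the log2 ratio of the 2 summed values it was 2.33, 2.35 and 2.41 in WT and 2.11, 2.37 and 2.17 in Ahr-KO, where Ahr-KO library 1 lay among the WT libraries and the difference was -0.15. Without Tppp3, a removal chosen after the values were seen, the ratio of sums was 1.98, 2.05 and 2.21 against 1.57, 1.87 and 1.65. The groups were then apart, with a difference of -0.38. Taking out an abundant member that rose widens the fall by construction, so the wider gap is no independent evidence. The size of the contrast by sums was thus set in part by Tppp3. No p is given for these scores over members.

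Other genes of motile cilia, listed without regard to the naming families, included falls and no rises. Of 62 symbols 57 were in the table and 56 were tested: 13 fell (23.2%, against 6.26% of all entries), none rose, and the median was -0.47. Each left-out library lowered that count, to 5, 2 and 7 for WT library 0, 1 and 2 and to 3, 7 and 0 for Ahr-KO library 0, 1 and 2. The share of all entries called lower also dropped in each of these fits, to between 1.79% and 6.03%. Spata18 stood at 347, 449 and 739 in WT and 156, 194 and 173 in Ahr-KO (log2 -1.48, adjusted p = 0.015). Ccno, a cyclin-like gene needed to amplify the basal bodies of multiciliated cells, went from 43.0, 47.6 and 46.2 to 15.3, 25.6 and 19.1 (log2 -1.18, adjusted p = 0.035). In both the groups lay apart. The adenylate kinase genes Ak8 (log2 -1.26, adjusted p = 0.018) and Ak7 (log2 -0.94, adjusted p = 0.035) fell too, as did Armc4, of the outer-arm docking complex (log2 -1.29, adjusted p = 0.032), and Mns1 (log2 -0.71, adjusted p = 0.030). The other 43 tested genes did not pass, and 7 of the 56 had log2 fold changes above 0. The RFX genes Rfx2 (373 ± 22.9 and 411 ± 53.5, adjusted p = 0.57) and Rfx3 (77.8 ± 34.5 and 78.4 ± 10.1, adjusted p = 0.89) overlapped between groups. So did Gmnc, Tp73 and Deup1 (adjusted p = 0.69, 0.52 and 0.54).

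Older symbols hide further family members in the table. RefSeq now gives a symbol of the same families to 22 entries listed under another name, 17 of the axonemal families and 5 Ift genes. Of 15 tested axonemal ones 4 fell (26.7%, against 6.26% of all entries) and none rose. These were Wdr63 (now Dnai3), Wdr78 (now Dnai4), Lrrc6 (now Dnaaf11) and RGD1560242 (now Cfap95). Wdr63 went from 497, 564 and 706 to 239, 398 and 269 (log2 -0.98, adjusted p = 0.028) and Wdr78 from 275, 298 and 455 to 187, 183 and 168 (log2 -0.90, adjusted p = 0.031). RGD1560242 went from 43.0, 55.8 and 37.8 to 18.5, 23.1 and 9.55 (log2 -1.43, adjusted p = 0.047). None of the 5 older-named Ift entries passed by limma (1 was lower at an unadjusted p under 0.05, against 2245 of all 15386 entries). Their median was -0.05. This search was made after the data were seen, and 3 of the 4 that fell (Wdr63, Wdr78 and Lrrc6) also stand in the list of other motile cilia genes.

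A further list held motors, BBSome and transition zone genes shared by all cilia. It also holds transport proteins under other symbols, among them 4 of the older-named Ift entries (Hspb11, Ttc26, Ttc30a and Ttc30b), so it is not separate from Ift. Of 45 tested 0 fell by limma and 1 rose (2.22%, against 4.50% of all entries). At an unadjusted p under 0.05, 2 were lower and 3 higher, against 2245 and 2055 of all 15386 entries. The median of the list was 0.02. Groups were apart upwards for 10 (22.2%, against 17.0% of all entries) and downwards for 5 (11.1%, against 17.4%). The 1 that rose was Cep164, which builds the appendages that anchor basal bodies, at 821, 843 and 892 in WT and 1050.1, 1099 and 1195 in Ahr-KO (log2 0.39, adjusted p = 0.038). It kept its call only where WT library 2 was the one left out. Traf3ip1, a transport complex member with no Ift symbol, stood at 448, 405 and 452 against 297, 359 and 308 (log2 -0.44, adjusted p = 0.062).

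Marker genes of other epithelial cells moved in several directions beside the ciliary genes, and their part in the ciliary differences was not tested. Scgb1a1, the club cell secretoglobin that defines airway secretory cells, overlapped between groups at 220005, 188771 and 174785 in WT and 171983, 275385 and 167882 in Ahr-KO. Of 15 tested airway secretory genes 2 fell (13.3%, against 6.26% of all entries). These were Scgb3a1 (208, 498 and 561 against 48.4, 35.5 and 8.18, adjusted p = 0.012) and Bpifa1 (34, 269 and 1386 against 0.806, 0 and 0, adjusted p = 0.0096). The count of 2 became 1 without any 1 of the WT libraries and with limma-voom. The list's median log2 fold change was -0.85, and its mean log2 level relative to WT was -0.52, 0.07 and 0.45 in WT and -1.01, -1.17 and -1.22 in Ahr-KO, with the groups apart. Its summed value, most of it Scgb1a1, overlapped (210992 to 251572 in WT and 206223 to 309202 in Ahr-KO).

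Markers of the other cell types were read in the same way. None of the 6 tested basal cell genes passed by limma, 2 being lower at an unadjusted p under 0.05 (sum 59.1 to 141 and 90.9 to 164). Ngfr had the lowest p of these, at 53, 23.8 and 37.8 against 15.3, 13.2 and 17.7 (adjusted p = 0.067). Over all 15386 entries 2245 were lower and 2055 higher at an unadjusted p under 0.05. Of 14 pan-epithelial genes 1 rose (7.14%, against 4.50% of all entries), the keratin gene Krt19, from 4920.3, 5971 and 4718 to 9207, 10245 and 10683 (log2 0.95, adjusted p = 0.0054). That count was 4 with Ahr-KO library 0 left out and 2 with WT library 2 left out, and the list's sum was 27890.1 to 32391 in WT and 36892 to 44010.2 in Ahr-KO. Groups were apart upwards for 8 of these 14 genes (57.1%, against 17.0% of all entries), and 8 were higher at an unadjusted p under 0.05. Of 14 alveolar epithelial genes 3 rose (21.4%, against 4.50% of all entries) and none fell, Hopx with the lowest p (10143, 11734 and 8031 against 20819, 21699 and 19663, log2 1.07, adjusted p = 0.0071). Without Ahr-KO library 1 or 2 the count was 1. The alveolar sum was 612243 to 683331 in WT and 809801 to 918037 in Ahr-KO. Of the 14 alveolar genes, 10 were apart upwards (71.4%, against 17.0% of all entries), and 9 were higher at an unadjusted p under 0.05. None of 6 cartilage and 7 neuroendocrine genes passed by limma (0 cartilage genes and 2 neuroendocrine genes, 1 in each direction, at an unadjusted p under 0.05). The cartilage sum was 236 to 310 in WT and 222 to 375 in Ahr-KO, and the neuroendocrine sum 58.0 to 129 and 54.6 to 80.6. Their genes of lowest p were Col9a3 (adjusted p = 0.38) and Uchl1 (adjusted p = 0.10). The mitosis list summed to 2863 to 4022 and 1825 to 2343.

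**Figure D4:**
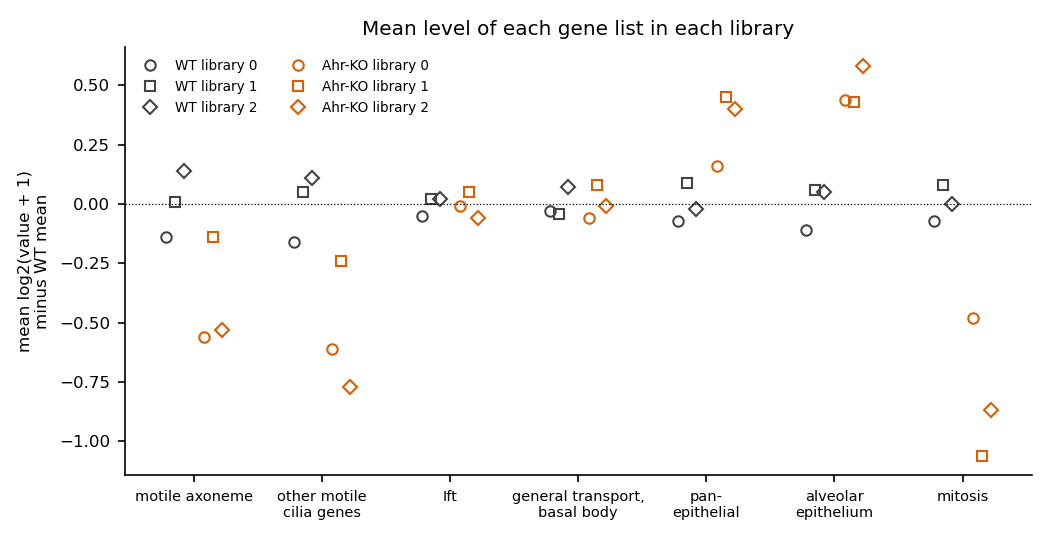
Mean log2(value + 1) of each gene list in each library, minus the mean of the 3 WT libraries (WT grey, Ahr-KO orange; circle, square and diamond are libraries 0, 1 and 2). Ahr-KO libraries 0, 1 and 2 stood at -0.56, -0.14 and -0.53 for the motile axoneme and at -0.01, 0.05 and -0.06 for Ift.

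Libraries within a group differed in their ciliary level. Ahr-KO library 1 was the highest of its group for 62 of the 74 motile axoneme members (83.8%), against 29.2% of all entries, and in the list-level plot it lay at the height of WT library 0, -0.14 for both. WT library 2 was the highest of its group for 44 (59.5%, against 40.0% of all entries), including 10 of the 12 dynein heavy chains. It also had the lowest estimated depth of all libraries, 12.9 M reads, and the part of depth was not tested. For the other motile cilia genes Ahr-KO library 1 was again the highest of its group, with -0.61, -0.24 and -0.77 in libraries 0, 1 and 2.

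The count of falls changed with each library left out, while the median log2 fold change stayed below 0. With Ahr-KO library 2 left out 1 of 74 motile axoneme members was called lower, Spag6, and 1.79% of all entries were. The count was 6, 4 and 8 when WT library 0, 1 or 2 was left out, and 6 and 13 for Ahr-KO library 0 or 1. The share of all entries called lower was then 2.73%, 3.35% and 5.95%, and 6.03% and 2.32%, against 6.26% with every library kept. The median stayed between -0.56 and -0.38 in these 6 fits, which share most of their libraries and so are no independent test of the direction. Of the 18 members called, Spag6 alone kept its call in all 6. Dnah11 and Hydin lost theirs only without Ahr-KO library 2 (adjusted p = 0.053 and 0.072). The calls of Cfap206, Cfap221, Cfap57 and Dnaaf1 were lost in all 6. Foxj1 lost its call without WT library 0 or 1 and without Ahr-KO library 0 or 2 (highest adjusted p = 0.094). Of the 3 members called higher, each lost its call when Ahr-KO library 1 or 2 was left out; Tppp3 also lost it without WT library 1 and Ift46 without WT library 0. Their highest adjusted p were 0.088 for Tppp3, 0.058 for Ift46 and 0.068 for Tekt5. Ccdc40, Dnah7 and Dnali1 kept their calls in 1 of the 6 fits, Cfap77 in 2, Dnai2 in 3, and Dnah6 and Cfap61 in 4.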

How the data were processed

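Bulk RNA-seq of total rat lung gave 6 libraries, 3 WT and 3 Ahr-KO, all labelled SuHx and day 56. The authors deposited 1 table of normalised read counts per gene symbol, treated here as a signal that is never negative, in which each library has a smallest step, the value of 1 read. Between 97.4% and 97.9% of a library's nonzero values came within 0.05 steps of a whole number of reads. Per the submitters' processing notes FastQC was run and the build was rn6; aligner, counter, annotation, strandedness and normalisation: not given in the sources used here. Columns number from 0 and sample titles from 1, so columns were assigned to groups only, and 0 columns of values were left out. Entries reaching 1 in 3 or more libraries (15386 of 19828) were transformed to log2(value + 1) and fitted with limma 3.58.1 (R 4.3.3, eBayes with trend, genotype as the only term), two-sided, Benjamini-Hochberg adjusted over all of them. An exact permutation of 3 against 3 cannot give a p below 0.1, so no gene was tested outside this model. Named are members past the threshold, the 8 members listed singly, the highest, lowest and most abundant of each role, and up to 4 genes of lowest p in each list with tested genes. A gene that this rule names is not reported here. Other genes named to describe a family, Cyp1a1 included, were chosen after their values were seen. Members, lists and rules were chosen with earlier results of these data known, so none is independent evidence. Roles and lists were assigned by hand. The code was checked on simulated data. Alternatives were other normalisations, variance models, filters, pseudocounts, thresholds, a replicate block, limma-voom on the estimated reads, and each library left out.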

Additional observations from a re-analysis of the deposited data

How the results depend on the processing

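Directions held better than counts. Over all settings the median log2 fold change of the motile axoneme stayed between -0.57 and -0.35, and no named gene that was called changed sign. The 15 of 74 motile axoneme members called lower became 9 after quantile normalisation, 23 with equal library totals, 4 with limma without the trend, 27 at an adjusted p under 0.10 and 2 of 73 without both libraries numbered 2 (chosen after seeing the data). Of all entries, 5.16% were lower after quantile normalisation, 8.54% with equal library totals and 4.23% without the trend, against 6.26% in the main fit. That share was 1.90% without both libraries numbered 2, 3.67% with the replicate block and 1.79% to 6.03% with 1 library left out. The 2 motile axoneme members called higher became 1 after quantile normalisation, 1 without the trend and 0 without both libraries numbered 2. With older names 19 were lower. The other motile cilia genes called lower went from 13 to 7 after quantile normalisation, 6 without the trend and 1 without both libraries numbered 2. The 1 Ift member called higher became 0 at a fold of at least 1.5. Of the general transport list, 0 were higher after quantile normalisation, with equal totals, without the trend and without both libraries numbered 2, and 1 was lower with equal totals. The Ift median was -0.18 with equal totals and 0.00 without both libraries numbered 2. The log2 ratio of the sets, -0.15 by sums, was -0.40 by means of log2 values and -0.38 without Tppp3 (a removal chosen after seeing the data). Leaving out 1 library gave 1 to 13 motile axoneme members lower and 0 to 2 higher, 0 to 1 Ift members higher, 0 to 7 other motile cilia genes lower and 0 to 1 general transport genes higher, with medians of -0.56 to -0.38 and, for Ift, -0.14 to 0.00. The replicate block, by library number, left 7 motile axoneme members lower, 3 other motile cilia genes lower, 0 Ift members higher and 0 general transport genes higher. Same-numbered libraries did not deviate together (correlations -0.10, 0.07 and -0.07). With 3 libraries in each group these values cannot settle whether the numbers pair the samples. Over all entries 963 were lower and 692 higher, and 1314 and 448 with equal totals. The causes of these shifts were not tested. Members with few reads, such as Mcidas, Spag16 and Spag6l, could show only large changes at this depth.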
